A study of Mus musculus with 8 samples.

Results

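The genes described here are the PGC-1 family of transcriptional coactivators (Ppargc1a, Ppargc1b and Pprc1) and the factors of mitochondrial biogenesis that work with them: the DNA-binding activators Nrf1 and Gabpa, the nuclear receptors Esrra, Ppara and Ppard, and the mitochondrial transcription factor Tfam. They were chosen by symbol, 9 in all, and 8 of them had a row among the 19909 genes of the table that compares the 2 fractions of old haematopoietic stem cells (HSCs). Ppara had no row and is not analysed here. Because they were proposed with the comparison of the old fractions known, their values in that comparison are given as a description.

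All mice were homozygous for a GFP-LC3 reporter (Gfplc3/Gfplc3), a fusion of green fluorescent protein to the autophagosome protein LC3, whose signal falls as autophagy degrades it. HSCs were purified from bone marrow at steady state. The young group held 2 libraries of unfractionated HSCs from mice of 8 to 12 weeks. The old groups came from 3 mice of over 24 months: in each, AThi cells (high autophagy) were the 33% of HSCs dimmest for GFP and ATlo cells (low autophagy) the brightest 33%, sorted and sequenced as a pair, so each fraction holds 3 libraries. Young HSCs were not split by GFP, so age and gate cannot be told apart in a comparison with young. The library columns carry tags, D11 and D12 for young and O10, O11 and O12 for the old mice, and are named by these tags below.

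PGC-1 proteins do not bind DNA themselves. They are recruited by nuclear respiratory factor 1 (encoded by Nrf1), by GA-binding protein (Gabpa encodes its DNA-binding subunit), by the oestrogen-related receptors and by the PPARs, and raise transcription of nuclear genes for respiration, fatty acid oxidation and the mitochondrial genome's own machinery. TFAM is among the products of that program and packages and transcribes mitochondrial DNA. Quiescent HSCs are known for low reliance on mitochondrial respiration, and autophagy, which removes mitochondria among other cargo, is one of the processes that keeps them so.

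Library depth was 45590508 and 44021141 recovered reads in young D11 and D12, 33960216 to 45830216 in AThi and 54512285 to 61341946 in ATlo. The labelled cell type was borne out by its markers: all 12 genes of the HSC list (among them Procr, Slamf1, Mecom and Hlf) were measured, with a summed normalized count of 135315 to 139486 in young, 133398 to 156001 in AThi and 101094 to 121495 in ATlo. Genes of the B cell list, 6 of 10 measured, stood apart in the libraries tagged 12: they summed to 10799 in young D12, 24001 in AThi O12 and 10167 in ATlo O12, and to between 654 and 992 in the other libraries. Cd79a, a chain of the B cell receptor complex, was at 465, 915 and 496 in those 3 libraries and at 15.7 or less elsewhere. Lists of the megakaryocyte (9 of 10 measured) and granulocyte (9 of 12) lineages were higher in all old libraries than in young, at 17137 to 22138 against 4696 to 6429 and at 6834 to 9303 against 3769 to 4310. The progenitor list (6 of 8 measured) was lower in all old libraries, at 3239 to 5499 against 7709 to 8310. The T and NK cell list (3 of 10 measured, with no row for Cd3e, Cd3d or Cd3g) summed to 1091 to 1223 in young, 1895 to 3124 in AThi and 1369 to 1479 in ATlo, and the erythroid list (8 of 10) to 29424 to 33979, 26463 to 33006 and 35260 to 41683. Sums of the monocyte (7 of 10), mast cell (3 of 8) and stromal and endothelial (6 of 9) lists overlapped between AThi and ATlo.

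Promoter windows were read from RefSeq (GRCm38.p6), as the 250 bases before the RefSeq start of 7 of the 8 genes (no window of Ppargc1b was used here), to show which short motifs of this network lie in front of its own members. All sequences are 5′ to 3′ on the gene's strand, and capitals mark the motif found. The motifs, on both strands, were chosen after the sequences had been seen: the GABP motif CCGGAAG, present in 6.91% of all 32851 windows of this length, the NRF-1 core GCATGCG in 3.02%, the cAMP response element TGACGTCA in 1.55%, its first part TGACGT, which lies inside the full element, in 6.47%, and the ERR element TCAAGGTCA in 0.387%.

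Ppargc1a, chr5:51567726-51567975, minus strand, is shown for the part element (read as ACGTCA on this strand) 50 to 45 bases before the start:
Ppargc1a: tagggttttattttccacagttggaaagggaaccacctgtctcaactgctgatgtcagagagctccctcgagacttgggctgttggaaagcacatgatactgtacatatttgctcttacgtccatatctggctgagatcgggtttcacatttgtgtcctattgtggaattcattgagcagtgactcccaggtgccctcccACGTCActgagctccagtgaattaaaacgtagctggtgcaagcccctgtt
Esrra, chr19:6921809-6922058, minus strand, is shown for an NRF-1 core 34 to 28 bases before the start:
Esrra: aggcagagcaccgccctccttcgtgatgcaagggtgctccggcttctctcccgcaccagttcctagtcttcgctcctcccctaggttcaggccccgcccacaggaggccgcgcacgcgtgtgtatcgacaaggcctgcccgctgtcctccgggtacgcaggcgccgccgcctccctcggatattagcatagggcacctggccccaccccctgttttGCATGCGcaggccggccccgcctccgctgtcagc

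The RefSeq starts of these 2 genes lie 1 and 5 bases inside the outermost GENCODE bounds given below, and those of some other members lie further inside. The window of Tfam (chr10:71238045-71238294, minus strand) held a GABP motif 47 to 41 bases before its RefSeq start, which lies 236 bases inside the GENCODE gene, so that 236 of the 250 bases are exon by GENCODE and the window is not printed. The window of Gabpa (chr16:84834874-84835123, plus strand) held a GABP motif 93 to 87 bases before its RefSeq start, 199 bases inside the GENCODE gene, and an NRF-1 core, read on both strands, in the last 8 bases. The windows of Pprc1 (RefSeq start 11653 bases inside the GENCODE gene), Nrf1 (2 windows, at the GENCODE start and 28333 bases inside) and Ppard (54 bases inside) held none of these letters. A match is only a run of letters, and no binding was measured here.

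The 8 genes spanned a wide range of abundance. Levels were compared as normalized count per 1000 bases of summed exon (GENCODE vM21, GRCm38), where a normalized count is the number of reads over the size factor of its library. Gabpa was the most abundant in each group, at 1103 ± 260 in young (SD, n = 2), 1007 ± 85.9 in the AThi libraries and 1062 ± 14.8 in the ATlo libraries (SD, n = 3 for both). Over all 8 libraries its mean level was at the 91.1 percentile of the 15057 genes with a length. Tfam came next in each group, at 471 ± 74.1 in young, 432 ± 57.6 in AThi and 480 ± 32.5 in ATlo, and Pprc1 followed at 250.1 ± 60.5, 213 ± 80.5 and 300.3 ± 73.7. In no group did the libraries of Gabpa overlap those of Tfam, or those of Tfam overlap those of Pprc1.

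The other 5 genes lay lower, and their order depended on the group. In young it ran Nrf1 (115 ± 15.8), Ppard (59.8 ± 31.2), Esrra (59.6 ± 6.60), Ppargc1b (42.7 ± 12.9) and Ppargc1a (30.5 ± 4.85), with overlapping libraries for Ppard and Esrra and for Ppargc1b and Ppargc1a. In AThi all neighbours from Pprc1 downwards overlapped: Ppargc1b 127 ± 111, Nrf1 80.8 ± 17.4, Esrra 80.0 ± 32.9, Ppargc1a 75.6 ± 60.6 and Ppard 67.2 ± 1.62. In ATlo the levels of Nrf1 (94.4 ± 14.4), Esrra (74.0 ± 10.7), Ppard (61.7 ± 8.58) and Ppargc1b (54.2 ± 12.5) each overlapped the next, and Ppargc1a stood apart below them at 9.01 ± 5.55. Ppargc1a was thus the least abundant of the 8 per length in young and in ATlo, and in AThi it ranked 7 of 8, above Ppard, with overlapping libraries. With the longest transcript as the length, Ppargc1a was the lowest in all 3 groups and Nrf1 ranked 4 in AThi, so the order within AThi depends on the length used.

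Ppargc1a (ENSMUSG00000029167, chr5:51454250-51567726, minus strand) encodes PGC-1alpha, the inducible member of the family. Its normalized counts were 179 and 224 in young D11 and D12, 959, 291 and 245 in AThi O10, O11 and O12, with 89.6, 69.9 and 18.7 in ATlo O10, O11 and O12. All AThi libraries lay above all young libraries and all young libraries above all ATlo libraries, with AThi O10 far above the other 2 AThi libraries. The lowest value, in ATlo O12, rested on 24 reads and the highest, in AThi O10, on 655.

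Within each old mouse, Ppargc1a mRNA was higher in the AThi fraction than in the ATlo fraction. The ratio was 10.7 in O10, 4.16 in O11 and 13.1 in O12, so the library with the highest count was not the one with the largest ratio. In the authors' deposited table the log2 fold change of AThi over ATlo was 3.07 (SE 0.62, 95% interval 1.85 to 4.28). In bulk RNA, fewer cells with a transcript and less of it per cell cannot be told apart. Between its highest and lowest library Ppargc1a varied 51.4-fold, which placed it at the 99.1 percentile of the 13611 genes with a mean count of at least 100, for which the median was 1.97-fold.

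**Figure D1:**
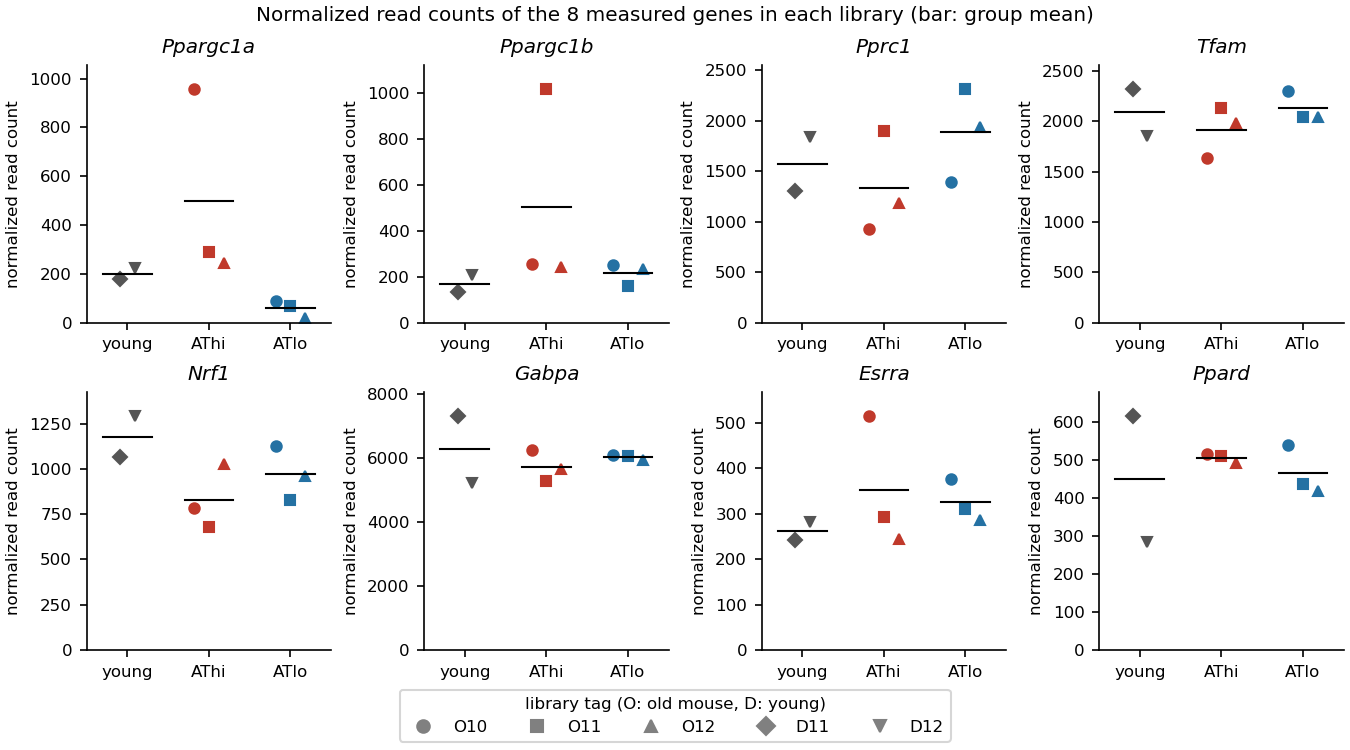
Normalized read counts (y axes, linear, each with its own scale from 0) of the 8 measured genes in every library by group (x axes); marker shapes give the library tag and bars the group mean. Ppargc1a separates the 3 groups, with 1 AThi library at 959, and Ppargc1b has a single high AThi library at 1020, while AThi and ATlo overlap for the other 6 genes.

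Of the 8 genes, 1 was called higher in AThi than ATlo (Ppargc1a) and 0 lower in the authors' deposited table, at an adjusted p below 0.05 by DESeq2's Wald test with Benjamini-Hochberg adjustment. Over all genes tested 3.47% were called higher and 4.43% lower, 7.9% in all. At an unadjusted p below 0.05 the count was 2. For counts at an unadjusted p, here and below, no share over all genes is given, so they lack a reference. The quasi-likelihood test of edgeR on the recovered reads called 0 of the 8 (adjusted p = 0.072 for Ppargc1a), against 1.41% of all genes, with 1 at an unadjusted p below 0.05. Ppargc1a was also the 1 gene of the 8 whose AThi libraries all lay above ATlo, and 0 lay below, where over all genes 10.3% lay above and 10.9% below, 21.3% in all. Without AThi O10 the log2 fold change of Ppargc1a was 2.17. The median log2 fold change of the 8 genes was 0.02, and that of all genes tested was 0.02.

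Several measures moved with the gate beside Ppargc1a. Read depth was lower in every AThi library (33960216 to 45830216 reads) than in any ATlo library (54512285 to 61341946). The 18 genes of the cell cycle list summed to 58641 to 72321 in AThi, 98956 to 119898 in young and 141949 to 162516 in ATlo, and all 18 were called lower in AThi than ATlo in the authors' deposited table. Mki67, a marker of cycling cells, was at 14140, 14501 and 20394 in AThi and at 40269.6, 42789 and 47738 in ATlo. Pclaf, a replication factor, was at 441, 535 and 481 in AThi and at 2401, 2217 and 2342 in ATlo. The summed HSC markers and the T and NK cell list were higher in every AThi library than in any ATlo library, and the erythroid list was lower. The T and NK cell sum followed 1 gene, Klrb1c, an NK cell receptor, at 1284 to 2730 in AThi and 721 to 950 in ATlo. Klrb1c was called higher in AThi than ATlo (log2 fold change 1.33, SE 0.27, DESeq2 adjusted p = 5.7e-05 in the authors' deposited table). It was the only call among the 3 measured genes of that list, of which 1 had a value below 0. The part of these measures in the Ppargc1a difference was not tested. With both libraries of O12 left out of a DESeq2 refit, the log2 fold change of Ppargc1a was 2.97.

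Ppargc1b (ENSMUSG00000033871, chr18:61298136-61400431, minus strand) encodes PGC-1beta, which shares much of the domain plan of PGC-1alpha. Its normalized counts were 134 and 207 in young, 258, 1020 and 242 in AThi, with 253, 160 and 236 in ATlo. A single library, AThi O11 (926 reads), was high, and the other 7 lay between 134 and 258 with AThi and ATlo overlapping. The ratio of AThi to ATlo was 1.02 in O10, 6.39 in O11 and 1.02 in O12. The log2 fold change was 1.23 (SE 0.54) in the authors' deposited table, and without AThi O11 a DESeq2 refit gave 0.21.

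Pprc1 (ENSMUSG00000055491, chr19:46044886-46072915, plus strand) encodes the PGC-1-related coactivator PRC, which is known as the growth-induced member. Its normalized counts were 1303 and 1841 in young, 928, 1905 and 1187 in AThi, with 1399, 2320 and 1944 in ATlo. The groups overlapped, but within each mouse the AThi library was below its ATlo partner, at a ratio of 0.664, 0.821 and 0.611. The log2 fold change was -0.49 (SE 0.29, DESeq2 adjusted p = 0.35) in the authors' deposited table, and the edgeR adjusted p was 0.48. With the mouse as a replicate block in a DESeq2 refit of the 6 old libraries it was -0.53 (adjusted p = 0.033). In the same libraries without the block it was -0.49 (adjusted p = 0.35). Without AThi O11, the highest AThi library, the DESeq2 refit gave -0.83 (adjusted p = 0.037). That fit broke the pair, as it kept the ATlo partner, which was the highest ATlo library. Without both libraries of O12 the DESeq2 refit gave -0.39 (adjusted p = 0.73). The exons of Pprc1 overlap those of Ldb1 on the opposite strand, and with the strand setting of the counting not given in the sources used here, reads of the overlap cannot be assigned to either gene.

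**Figure D2:**
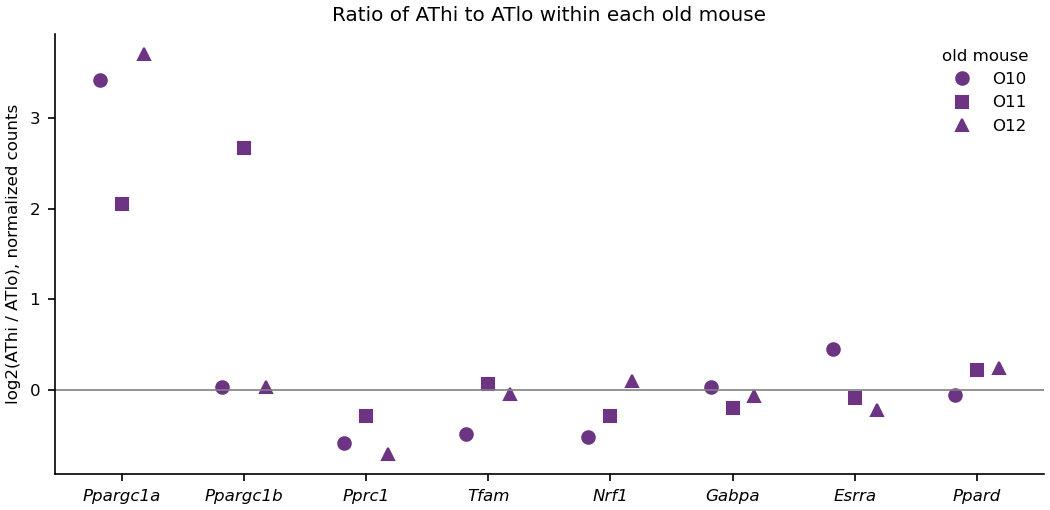
Log2 ratio of the AThi to the ATlo normalized count (y axis) within each of the 3 old mice (marker shapes) for the 8 measured genes (x axis); the line marks equal counts. Ppargc1a lies above the line in all 3 mice, Pprc1 below it in all 3, and Ppargc1b is clearly above it in O11 alone.

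Counted by mouse, 2 of the 8 genes were higher in AThi in all 3 mice (Ppargc1a and Ppargc1b), 1 was lower in all 3 (Pprc1) and 5 were mixed. Among all genes 40.5% had the same direction in the 3 mice.

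The 3 coactivators contributed unequally to the family's mRNA in the 3 groups. As a share of their summed count per 1000 exon bases, Ppargc1a made up 10.1% and 8.97% in young, 40.7%, 7.32% and 13.0% in AThi, with 4.54%, 2.52% and 0.762% in ATlo. Its lowest AThi share, in O11, is from the library in which Ppargc1b was high and made up 42.4%. Pprc1 made up 77.4% and 77.3% in young, 41.3%, 50.3% and 65.9% in AThi, with 74.3%, 87.9% and 83.3% in ATlo. In the AThi libraries the share of Pprc1 was thus lower than in any young or ATlo library. The summed level itself overlapped between the groups, at 268 and 379 per 1000 exon bases in young, 287 to 603 in AThi and 299.6 to 419.7 in ATlo.

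**Figure D3:**
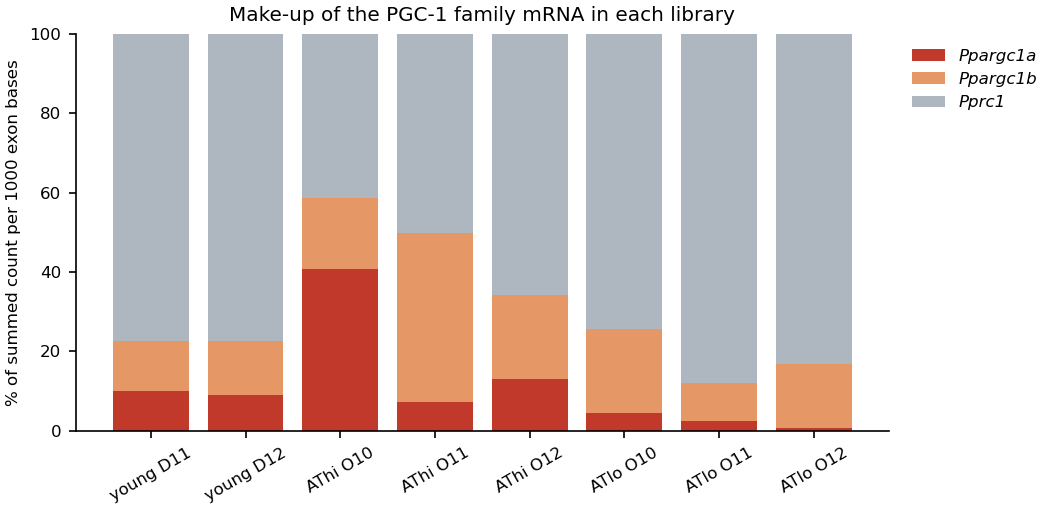
Share of Ppargc1a, Ppargc1b and Pprc1 in their summed count per 1000 exon bases (y axis, %) in each library (x axis). Pprc1 makes up 74.3% or more in the young and ATlo libraries and 65.9% or less in the AThi libraries.

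None of the DNA-binding partners was called between the old fractions in the authors' deposited table, where 7.9% of all genes tested were. Nrf1 (ENSMUSG00000058440, chr6:30047988-30153458, plus strand) was at 1064 and 1294 in young, 786, 678 and 1028 in AThi, with 1124, 828 and 960.1 in ATlo. The AThi libraries overlapped ATlo and lay below both young libraries, O12 only just. The Nrf1 ratio of AThi to ATlo was 0.699 in O10, 0.819 in O11 and 1.07 in O12. Its log2 fold change of AThi over ATlo was -0.22 in the authors' deposited table (SE 0.23, 95% interval -0.67 to 0.22).

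Gabpa (ENSMUSG00000008976, chr16:84834925-84863779, plus strand) was at 7319 and 5227 in young, 6249, 5279.6 and 5654 in AThi, with 6108, 6058 and 5944 in ATlo. The 2 young libraries held both the highest and the lowest value of the 8. AThi over ATlo gave a log2 fold change of -0.08 in the authors' deposited table (SE 0.15, 95% interval -0.36 to 0.21). Its span of 1.40-fold between libraries was at the 11.4 percentile of genes. The exons of Gabpa overlap Atp5j on the opposite strand.

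Among the nuclear receptors, Esrra (ENSMUSG00000024955, chr19:6910977-6921813, minus strand), which encodes oestrogen-related receptor alpha, was at 241 and 282 in young, 515, 293 and 245 in AThi, with 377, 311 and 286 in ATlo. AThi O10, the library in which Ppargc1a was highest, also held the highest Esrra value, and the other 2 AThi libraries lay within the range of young and ATlo. The ratio of AThi to ATlo was 1.37 in O10, 0.941 in O11 and 0.856 in O12. Its log2 fold change was 0.11 (SE 0.35) in the authors' deposited table, and it turned to -0.27 in a DESeq2 refit without AThi O10. The exons of Esrra overlap Trmt112 on the opposite strand and the microRNA gene Mir6990 on the same strand.

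Ppard (ENSMUSG00000002250, chr17:28232700-28301474, plus strand), which encodes the fatty acid sensor PPAR-delta, was at 615 and 283 in young, 515, 509 and 492 in AThi, with 537, 437 and 417 in ATlo. The old libraries lay between the 2 young ones. AThi over ATlo gave 0.12 on the log2 scale in the authors' deposited table (SE 0.31, 95% interval -0.49 to 0.74).

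Tfam (ENSMUSG00000003923, chr10:71225464-71238280, minus strand) was at 2323 and 1858 in young, 1634, 2132 and 1981 in AThi, with 2295, 2045 and 2045 in ATlo. The groups overlapped, with the lowest value in AThi O10. The ratio of AThi to ATlo was 0.712 in O10, 1.04 in O11 and 0.969 in O12. In the authors' deposited table the log2 fold change was -0.15 (SE 0.17, 95% interval -0.47 to 0.17). The AThi libraries that were high for a coactivator were not high for Tfam: O10 was the lowest of the 8 libraries and O11 lay within the range of young and ATlo.

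The comparisons with young asked whether either old fraction departs from unfractionated young HSCs. They share the young libraries, so the values are given side by side and not correlated, and they share the old libraries with the comparison of the fractions. The part of the lineage lists that differed between old and young in these values was not tested. By the authors' deposited table none of the 8 genes was called in either comparison (DESeq2's Wald test, Benjamini-Hochberg adjustment), against 5.04% of all genes tested for AThi against young (3.13% higher, 1.91% lower) and 4.34% for ATlo against young (2.37% higher, 1.98% lower). At an unadjusted p below 0.05 the counts were 2 and 1. The edgeR test called 0 in both, against 1.21% and 0.653% of all genes, with 1 gene at an unadjusted p below 0.05 in each.

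For Ppargc1a the authors' deposited table gave a log2 fold change of 1.31 for AThi against young (SE 0.69, DESeq2 adjusted p = 0.38, 95% interval -0.04 to 2.66) and of -1.76 for ATlo against young (SE 0.69, DESeq2 adjusted p = 0.14, 95% interval -3.12 to -0.40). Neither passed, although the libraries of the groups did not overlap in either comparison. Without AThi O10 the AThi difference was 0.41, and its adjusted p was 0.96. The ATlo difference lay between -2.19 and -1.34 in all 9 alternative fits, with an adjusted p from 0.066 to 0.49.

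For Ppargc1b the authors' deposited table gave 1.57 for AThi against young (SE 0.60, DESeq2 adjusted p = 0.12) and 0.34 for ATlo against young (SE 0.60, adjusted p = 0.90). The first value rested on AThi O11: it was 0.55 without that library (DESeq2 refit, adjusted p = 0.76). It passed the threshold without AThi O10 (1.89, adjusted p = 0.048) and without AThi O12 (1.91, adjusted p = 0.031).

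Nrf1 was the only member whose AThi libraries all lay below young, with a log2 fold change of -0.50 in the authors' deposited table (SE 0.25, DESeq2 adjusted p = 0.33, 95% interval -0.999 to -0.0086). For ATlo against young the table gave -0.28 for Nrf1 (SE 0.25, adjusted p = 0.71). Esrra was the only member whose ATlo libraries all lay above young, with 0.31 in the authors' deposited table (SE 0.39, DESeq2 adjusted p = 0.83). Groups that do not overlap were common at these group sizes: for AThi against young 2 of the 8 genes lay above and 1 below, where 13.7% and 14% of all genes did, 27.8% in all. For ATlo against young 1 lay above and 1 below, where 15.7% and 15.1% of all genes did, 30.8% in all.

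Pprc1, Tfam, Gabpa and Ppard had differences from young between -0.23 and 0.26 on the log2 scale in the authors' deposited table, in both comparisons. Their intervals bound what could have been missed. For Tfam the 95% interval was -0.49 to 0.24 for AThi and -0.34 to 0.39 for ATlo, and for Gabpa it was -0.45 to 0.19 and -0.38 to 0.27. For Pprc1 it was -0.86 to 0.40 and -0.36 to 0.89, and for Ppard -0.52 to 0.86 and -0.64 to 0.73, so changes of these sizes were not excluded.

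**Figure D4:**
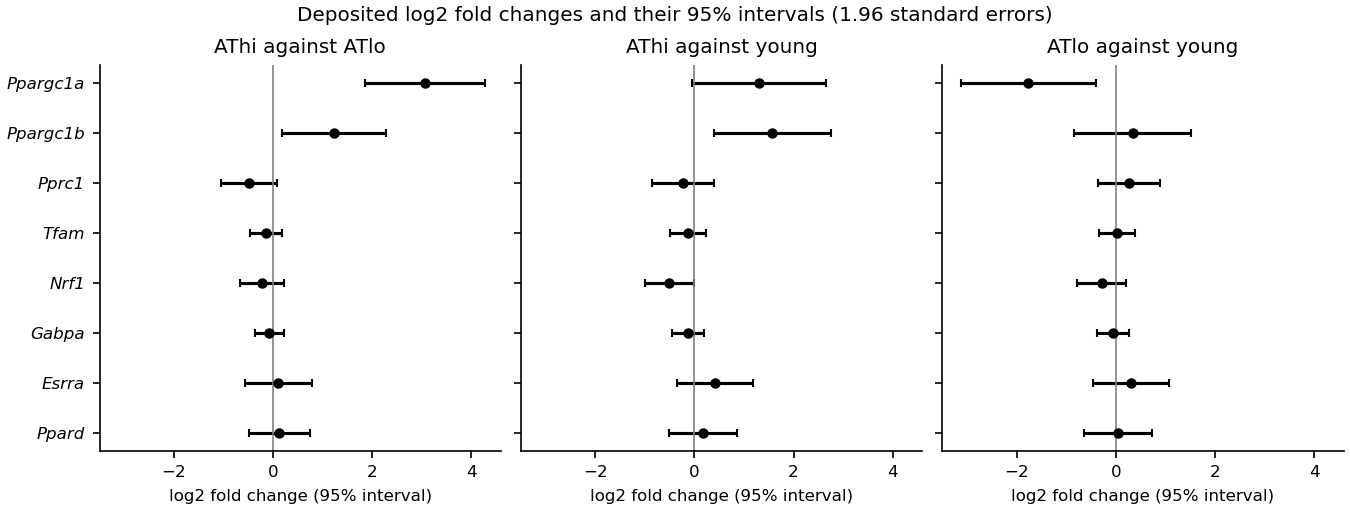
Log2 fold changes of the 8 measured genes (x axis) with 95% intervals (bars) from the authors' deposited table, for AThi against ATlo, AThi against young and ATlo against young (panels). Ppargc1a sits at 3.07, 1.31 and -1.76, and Tfam and Gabpa lie near 0 in all 3 panels.

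Genes known to regulate PGC-1 (29, all measured) moved in both directions between the old fractions. By the authors' deposited table, calls fell on 3 genes higher in AThi and 2 lower, or 17.2% of the list against 7.9% of all genes tested, with a median log2 fold change of 0.08. Prmt1, an arginine methyltransferase that coactivates with PGC-1alpha, was at 1357 to 1771 in AThi and 2142 to 3176 in ATlo (log2 fold change -0.79, SE 0.19, DESeq2 adjusted p = 0.0012 in the authors' deposited table). Hdac3, a histone deacetylase of the NCoR corepressor complex, was lower by the same table (-0.89, SE 0.23, DESeq2 adjusted p = 0.0038). Ncoa1, a steroid receptor coactivator that docks on PGC-1alpha, was at 4087 to 5357 in AThi and 3221 to 3566 in ATlo (0.48, SE 0.14, DESeq2 adjusted p = 0.0091 in the authors' deposited table). Nrip1, the corepressor RIP140 that opposes PGC-1, was higher too (0.36, SE 0.11, DESeq2 adjusted p = 0.022 in the authors' deposited table). The fifth was Crebbp, an acetyltransferase, which falls outside the rule for named genes and was named after its value was seen. The edgeR test called 0 of the 29. Without AThi O10 a DESeq2 refit called 0 higher and 2 lower. Without ATlo O10 it called 1 and 3, without AThi O12 2 and 4, and without either ATlo O11 or ATlo O12 2 higher. Without both libraries of O12 it called 1 and 1, and none of the 4 genes named here was among them (adjusted p = 0.11 for Prmt1, 0.084 for Hdac3, 0.14 for Ncoa1 and 0.11 for Nrip1).

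Against young, the same table called Mef2c (0.46, DESeq2 adjusted p = 0.014) and Ncoa1 (0.48, DESeq2 adjusted p = 0.034) higher in AThi, and Hdac3 higher in ATlo (0.88, DESeq2 adjusted p = 0.021), out of the 29 regulators. For AThi that was 6.90% of the list against 5.04% of all genes tested, and for ATlo 3.45% against 4.34%. MEF2C is a transcription factor that acts on the Ppargc1a promoter in muscle. Each of these 3 calls was lost in the edgeR test (adjusted p = 0.12, 0.17 and 0.21) and in a DESeq2 refit without either young library. Those of Mef2c and Ncoa1 were also lost without AThi O10 or AThi O12, and that of Hdac3 without any 1 of the ATlo libraries.

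Other DNA-binding partners of PGC-1 (11 of 13 measured) had 0 calls in the authors' deposited table in all 3 comparisons. Over all genes tested 7.9% were called for AThi against ATlo, 5.04% for AThi against young and 4.34% for ATlo against young. At an unadjusted p below 0.05 this list had 2 higher and 2 lower between the fractions. It had 1 for AThi against young and 0 for ATlo against young, and edgeR called 0 of the list. Of the genes known as targets of PGC-1, ERR and PPAR (19 of 23 measured), 0 were called higher in AThi than ATlo and 1 lower by the authors' deposited table, or 5.26% of the list against 7.9% of all genes tested, with a median log2 fold change of -0.09. The gene was Cycs, which encodes cytochrome c, the mobile electron carrier and a textbook target of NRF-1: it was at 499 to 963 in AThi and 1238 to 1665 in ATlo (-0.93, SE 0.26, DESeq2 adjusted p = 0.0080 in the authors' deposited table). Its call was lost in the edgeR test (adjusted p = 0.11), without ATlo O11 (DESeq2 refit, adjusted p = 0.056) and without ATlo O12 (adjusted p = 0.076). Against young, 0 targets were called in either comparison, where 5.04% of all genes tested were called for AThi and 4.34% for ATlo. At an unadjusted p below 0.05 there were 3 targets for AThi and 2 for ATlo, and edgeR called 0. The summed count of the targets was 55063 to 55829 in AThi, 54780 to 56505 in young and 60062 to 65153 in ATlo. The part of cell cycle state in that sum was not tested.

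Genes for the maintenance and expression of mitochondrial DNA (33, all measured), the group to which Tfam belongs by function, had 0 called higher and 2 lower in AThi than ATlo in the authors' deposited table, or 6.06% of the list against 7.9% of all genes tested, with a median of -0.10. They were Elac2, which trims the 3′ ends of mitochondrial tRNAs (-0.87, DESeq2 adjusted p = 0.0088), and Fastkd3, an RNA-binding protein of mitochondria (-0.99, DESeq2 adjusted p = 0.012). Neither was called by edgeR (adjusted p = 0.11 and 0.12), nor in a DESeq2 refit without AThi O11, AThi O12, ATlo O10 or ATlo O11, and Elac2 was not called without both libraries of O12. Fastkd3 was also called lower in AThi than in young by the authors' deposited table (-1.03, DESeq2 adjusted p = 0.029), a call that was lost in the edgeR test (adjusted p = 0.17) and without AThi O11, AThi O12 or either young library. Fastkd3 was the 1 call of this list for AThi against young, or 3.03% of the list against 5.04% of all genes tested. For ATlo against young 0 of the 33 were called, against 4.34% of all genes tested, with 4 at an unadjusted p below 0.05 and 0 by edgeR. The summed count of the 33 genes was 25964 to 26838 in AThi, 27125 to 27251 in young and 27482 to 28362 in ATlo. The part of cell cycle state in that sum was not tested. The 13 mRNAs encoded by mitochondrial DNA had 0 calls in all 3 comparisons, and edgeR called 0. The shares over all genes tested were 7.9% between the fractions, 5.04% for AThi against young and 4.34% for ATlo against young. Between the fractions 1 of the 13 mRNAs was lower at an unadjusted p below 0.05, and 0 in the comparisons with young. Their summed count was lowest in both libraries of mouse O11, at 639380 in AThi and 585163 in ATlo. The other 6 libraries lay at 811984 to 998762, and the fractions overlapped. In young the sum was also lower in D11 (811984) than in D12 (968298). Mouse and any processing shared by libraries with the same tag number cannot be told apart here.

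Genes of mitochondrial protein import (34, all measured) had 0 called higher and 5 lower in AThi than ATlo in the authors' deposited table, or 14.7% of the list against 7.9% of all genes tested. Of the 34, 28 had a value below 0, as did 47.9% of all genes tested, with a median of -0.21. Timm23, the channel of the inner membrane translocase, was at 749 to 966 in AThi, 1036 to 1089 in young and 1297 to 1348 in ATlo (-0.69, SE 0.17, DESeq2 adjusted p = 0.0021 in the authors' deposited table). Tomm22, a receptor of the outer membrane (-0.52, DESeq2 adjusted p = 0.0099), Hspa9, the chaperone of the import motor (-0.41, DESeq2 adjusted p = 0.014), and Tomm5, a small subunit of the outer channel (-0.51, DESeq2 adjusted p = 0.015), were also called in the authors' deposited table. The fifth was Samm50, named after its value was seen. The summed count of the list was 49759 to 52216 in AThi, 53393 to 54561 in young and 59112 to 64847 in ATlo, the same order of groups as the cell cycle list. The part of cell cycle state in it was not tested. The count of genes called lower was 0 by edgeR, 8 with the mouse as a replicate block, 3 without both libraries of O12, and 2 without AThi O10, ATlo O11 or ATlo O12. Against young, 0 import genes were called in either comparison, where 5.04% of all genes tested were called for AThi and 4.34% for ATlo. At an unadjusted p below 0.05 there were 2 import genes for AThi and 3 for ATlo, and edgeR called 0.

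Genes of mitochondrial fusion, fission and cristae (18, all measured) had 0 called higher and 1 lower in AThi than ATlo in the authors' deposited table, or 5.56% of the list against 7.9% of all genes tested. Of the 18, 16 had a value below 0, as did 47.9% of all genes tested, with a median of -0.24. The gene was Chchd3, a subunit of the cristae-organising MICOS complex (-0.51, DESeq2 adjusted p = 0.037). It was not called by edgeR (adjusted p = 0.16) or in a DESeq2 refit without any 1 of the 6 old libraries (adjusted p from 0.063 to 0.17) or without both of O12 (0.33). Against young 0 of the 18 were called in either comparison, where 5.04% of all genes tested were called for AThi and 4.34% for ATlo. At an unadjusted p below 0.05 there was 1 of the 18 in each, and edgeR called 0. The summed count of the list was 33958 to 38863 in AThi, 38097 to 39175 in young and 39885 to 42673 in ATlo. The part of cell cycle state in that sum was not tested.

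Across the 8 libraries, the genes whose log2 counts followed Ppargc1a most closely among 11067 genes were Cdk19 (Pearson r = 0.996), Pja2 (0.988), Pura (0.981), Sertad2 (0.978) and Ip6k2 (0.976). Cdk19, a kinase of the Mediator complex, was at 6790 and 6738 in young, 8698, 7181 and 7160 in AThi, with 5872, 5597 and 4623 in ATlo, the same order of groups as Ppargc1a over a far smaller range. For Ppargc1b they were Dtx3 (0.931), Snx24 (0.927), Zswim8 (0.923), Ppp1r10 (0.915) and Ubqln2 (0.914), all of which shared its high value in AThi O11. For Pprc1 they were Atp6v0e (0.986), Taf6 (0.976), Zfp629 (0.957), Snrnp35 (0.957) and Tex30 (0.944). By rank correlation 2, 0 and 1 of these 5 genes, respectively, were again among the first 5. These are descriptions over 8 libraries that differ in group and in read depth, picked as the highest of many values. The part of group and depth in them was not tested.

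Among the members themselves, log2 counts of Ppargc1a over the 8 libraries correlated at 0.25 with Ppargc1b, -0.65 with Pprc1 and -0.52 with Tfam. Gabpa and Ppard correlated at 0.67. For both, young D11 was the highest of the 8 libraries and young D12 the lowest. Ppargc1b correlated at -0.61 with Nrf1 and with Gabpa, and Tfam at -0.55 with Esrra. The part of group and of single libraries in these values was not tested. No pair with Ppargc1a exceeded 0.38, the value for Esrra.

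Another of the authors' deposited tables scores 726 upstream regulators of the difference between AThi and ATlo, by a program not given in the sources used here. PPARGC1A had an activation score of -0.077 there, with an overlap p-value of 0.0106 in the authors' deposited table and no state assigned. Its 17 targets comprised 7 with higher and 10 with lower mRNA in AThi, and the lower ones included the replication helicase genes Mcm4, Mcm5 and Mcm6. PPARD scored 0.183 (overlap p = 0.0209 in the authors' deposited table) with 4 targets higher and 7 lower. PPARA was listed as activated, at 2.045 (overlap p = 0.00824 in the authors' deposited table), although Ppara had no row among the genes. Of its 17 matched targets 14 were lower in AThi, and 5 of the targets (Ccna2, Ccnb1, Cdk1, Mki67 and Top2a) are in the cell cycle list. Ppargc1a was among the higher targets of PPARGC1A, of PPARD and of PPARA, so its own difference enters the targets of each. Ppargc1a itself was listed as a target of 97 of the 726 regulators, and no other member as a target of any. Ppargc1a was also the only member called between the fractions by DESeq2. Whether the target lists hold called genes alone is unknown. If they do, the other members could not appear in them, so no contrast in regulation between members is drawn.

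**Figure D5:**
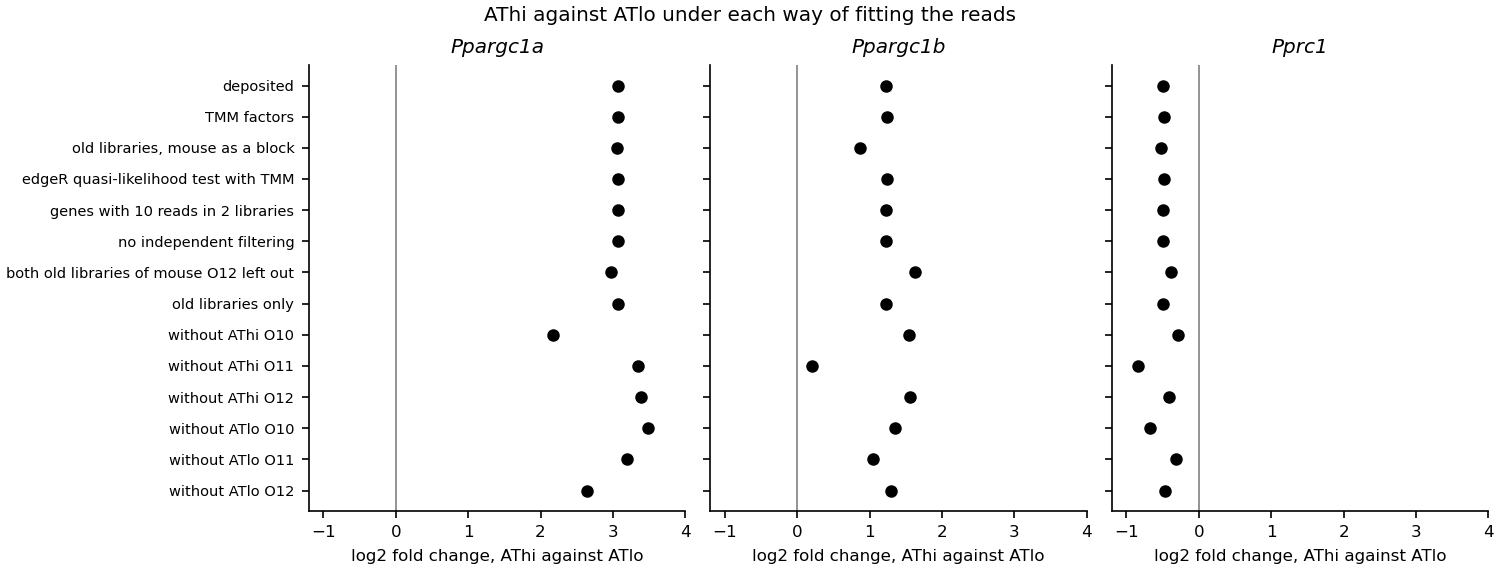
Log2 fold change of AThi against ATlo (x axes) for Ppargc1a, Ppargc1b and Pprc1 (panels) under the deposited fit and each alternative (y axis). Ppargc1a stays between 2.17 and 3.49, Ppargc1b falls to 0.21 without AThi O11, and Pprc1 lies between -0.83 and -0.29.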

How the data were processed

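Per the labels' protocols, each RNA sample came from about 10000 HSCs (integrity number over 9.0), samples were collected over 2 sort days (which library belongs to which is not recorded in them), and the libraries were made together and sequenced in paired-end mode, 50 bases per end, aiming at 40 M reads. The submitters' processing notes name FastQC, MultiQC, STAR, featureCounts and DESeq2 and the build GRCm38; they give no versions, annotation or strand setting.

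The authors deposited 1 table per contrast (3 contrasts, 19909 genes) of log2 fold changes, standard errors, Wald statistics (a score) and raw and adjusted p-values, missing for 73 genes. Each table repeats 8 library columns of the authors' normalized signal, which is reads over a size factor. A further deposited table of upstream regulators holds an activation score, an overlap p-value and a log2 fold change. Columns carry a group and a tag, per the file headers, and were matched to groups only. Reads were recovered as whole numbers for 100% of values (within 0.01 of a read) and totalled 33960216 to 61341946 per library. Depth speaks for counting error only, as molecules were not tagged.

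The deposited DESeq2 Wald test was kept (8 libraries, no mouse term, Benjamini-Hochberg adjustment over all genes, called at an adjusted p below 0.05). Alternatives refitted the recovered reads with DESeq2 1.42.0 and edgeR 4.0.16 in R 4.3.3, and were checked on simulated data with 200 genes changed. Python 3.11.15, numpy 2.4.6, pandas 2.3.3 and matplotlib 3.10.9 did the rest. The members, the pathway lists and the marker lists were chosen with earlier results of these data known. Named genes are all members, up to 4 called genes per list between the old fractions and up to 3 per list against young by adjusted p, the 5 genes most like each coactivator by Pearson correlation of log2(normalized count + 1) among those with a mean count of 100 or more, and Mki67, Pclaf and Cd79a. The labels state that AThi and ATlo were paired. Columns with the same tag were taken as 1 mouse. Their deviations from the group means correlated at 0.209, 0.164 and 0.373 over 13611 genes, against -0.232 to 0.030 for different tags. A batch shared by columns with the same tag would also give such correlations, so they cannot tell mouse from batch. Libraries of a group differed by more than sampling noise in every pair (chi-square per degree of freedom 51.2 to 107). The labels do not say how each young library was sourced, so p-values measure the spread between these samples.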

Additional observations from a re-analysis of the deposited data

How the results depend on the processing

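Of 248 refitted values of the 8 genes, 233 kept their direction and their side of the threshold, 4 passed it only in the alternative, 1 lost it (Ppargc1a between the old fractions, by edgeR) and 10 turned direction; each of those 10 turned when 1 library was left out, and the cause was not tested. Leaving out 1 library in turn gave, for AThi against young, Tfam -0.28 to 0.045 (above 0 without young D11, 0.045), Gabpa -0.35 to 0.13 (without young D11, 0.13), Pprc1 -0.57 to 0.041 (without young D12, 0.041) and Ppard -0.28 to 0.84 (without young D12, -0.28). For ATlo against young it gave Tfam -0.13 to 0.20 (below 0 without ATlo O10, -0.032, and young D12, -0.13), Gabpa -0.28 to 0.21 (without young D11, 0.21) and Ppard -0.41 to 0.71 (without ATlo O10, -0.072, and young D12, -0.41). Between the fractions it gave Esrra -0.27 to 0.31 (without AThi O10, -0.27). Without a young library the young arm has 1 sample, which is assumed to vary like the other groups. Over all genes the deposited counts of 1414 (AThi against ATlo), 961 (AThi against young) and 811 (ATlo against young) became 280, 240 and 130 with edgeR. Leaving out 1 library gave 932 (without AThi O10, and also without ATlo O11) to 1429, 583 (without young D12) to 1093, and 356 (without young D11) to 815. With the mouse as a replicate block, in the 6 old libraries, 1947 genes were called between the fractions, against 1360 in the same libraries without it, a fit added after the data were seen. Among the members the block changed the call of Pprc1 alone. No paired analysis was possible for the comparisons with young because young and old libraries share no mouse. Library factors from TMM changed no member's call. Ppargc1a has the fewest reads of the 8 genes in ATlo, down to 24 in O12, which limits the precision of its ratio.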
